A study of Mus musculus with 3 samples.

Results

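Genes of the basement membrane and of the secreted matrix were followed in mouse blastocysts by low-input RNA-Seq. The set held 10 of the 24063 genes counted, namely 4 laminin chains (Lama1, Lama5, Lamb1 and Lamc1), both common collagen IV chains (Col4a1 and Col4a2), the nidogen Nid2, Sparc, Fbln5 and Cthrc1. They were picked by symbol and with results of these libraries known, and Fbln5 and Cthrc1 were included because they had 0 counts in B6. The difference between NOD and B6 in these 10 genes is therefore given as a description, without a test. There were 3 libraries, 1 from a B6 (C57BL/6) blastocyst sample and 2 from NOD, the non-obese diabetic strain that develops autoimmune diabetes, and no sample was treated. The labels name blastocysts and the study's methods describe single inner cell masses (ICM), and neither gives the embryo's age or how the libraries relate to animals.

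A basement membrane is a thin sheet of secreted proteins on which epithelia rest. Laminins are trimers of an alpha, a beta and a gamma chain that assemble first, collagen IV forms a second network of triple helices, and nidogens and perlecan link both. In the mouse blastocyst these proteins are known from the primitive endoderm, which lays the first basement membrane of the embryo against the epiblast, and from its parietal derivative, which builds Reichert's membrane. Sparc is a collagen-binding glycoprotein abundant in parietal endoderm, Fbln5 encodes fibulin-5 of elastic fibres, and Cthrc1 encodes a secreted protein with a short collagen triple helix repeat.

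Counts on genes ranged from 12505685 in B6 to 36171013 in NOD 2. Levels are given as CPM, the counts of a gene scaled to a common library size, with edgeR's TMM factors, and levels of different genes are compared only as FPKM (sums over marker lists are in CPM), which is CPM per kilobase of the listed transcript. For a gene without counts in B6, the limit set by 3 counts is 0.220 CPM. This limit and all counting intervals cover counting error only, because amplified reads are not independent molecules. Markers of trophectoderm, epiblast and primitive endoderm were present in all libraries. All 10 matrix genes passed the filter on low counts. On the same strand, their listed transcripts shared none of their 50-base words with transcripts of another gene in GENCODE M21. Words on the opposite strand were not searched.

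Of the 10 genes, 4 were above B6 in both NOD libraries (Lamb1, Sparc, Fbln5 and Cthrc1) and 4 were below it in both (Lama5, Nid2, Col4a1 and Col4a2). In Lama1 and Lamc1, 1 NOD library lay on either side of B6. Among all 14456 genes tested, 45.3% were above B6 in both NOD libraries and 39.4% below. The median log2 fold change of the 10 genes was -0.11, beside 0.26 for all genes tested. With total counts only, these medians were -0.29 and 0.07. The direction of the members' median turned with the library left out, from -0.53 without NOD 1 to 0.41 without NOD 2. Fbln5 and Cthrc1 were among the 10.3% of genes that edgeR called higher in NOD, and Lama5 and Nid2 among the 7.39% called lower. Since the same contrast chose the genes, nothing is read from these counts. edgeR called no other gene of the set, whereas DESeq2 also called Lamb1 higher, for 3 higher and 2 lower. In such bulk libraries, fewer cells of one type and less RNA per cell cannot be told apart.

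**Figure D1:**
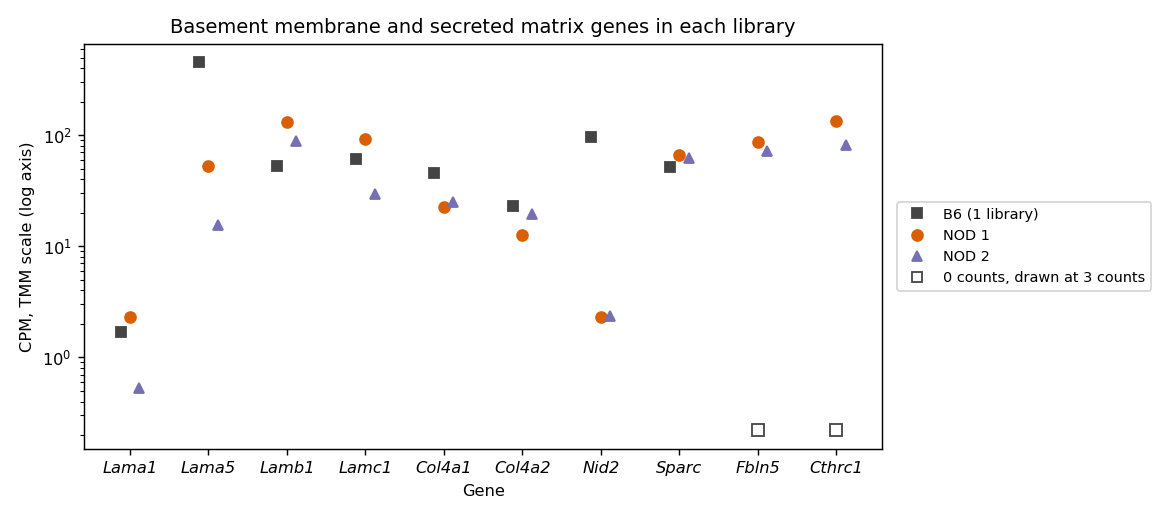
CPM (log axis) of each gene in the B6 library (square), NOD 1 (circle) and NOD 2 (triangle), with open squares for the 0 counts of B6 drawn at the limit of 3 counts. Lama5 and Nid2 are higher in B6 than in either NOD library, whereas Fbln5 and Cthrc1 were counted in NOD libraries only.

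Among the laminin alpha chains, Lama5 was the most abundant gene of the set per length in B6 and was lower in both NOD libraries. Lama5 (NM_001081171, mm10 chromosome 2, 180176373 to 180225859, minus strand) encodes the alpha-5 chain of laminin-511, which epiblast cells bind through integrins. It had 6158 counts (B6), 1746 (NOD 1) and 534 (NOD 2), which is 452 CPM against 52.8 and 15.7. B6 was 13.2 times the NOD mean of 34.3 ± 26.3 CPM (SD, n = 2), 8.56 times NOD 1 and 28.8 times NOD 2. Both NOD libraries lay below the only B6 library, as they did in 39.4% of all genes tested. The NOD libraries differed from each other by 3.37 times (exact 95% counting interval 3.05 to 3.72).

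Lama1 (NM_008480, chromosome 17, 67697265 to 67822645, plus strand) encodes the alpha-1 chain of laminin-111, the chain classically assigned to Reichert's membrane. It was the lowest of the 10 genes in NOD per length and had few counts in all libraries, with 23 counts (B6), 77 (NOD 1) and 18 (NOD 2). These are 1.69, 2.33 and 0.529 CPM, so that B6 lay between the NOD libraries. Without NOD 1 the log2 fold change of Lama1, -0.24, was -1.65, and without NOD 2 it was 0.46. Of the other alpha chains, Lama3 had 10.9 CPM (B6), 23.5 (NOD 1) and 5.61 (NOD 2), and Lama4 had 0 counts (B6), 136 (NOD 1) and 50 (NOD 2). Neither passed the test (edgeR's quasi-likelihood test with Benjamini-Hochberg adjustment over all genes, adjusted p = 0.753 and 0.0613). Lama2 had 0 counts in every library.

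Lamb1, the beta-1 chain found in most embryonic laminins, went the other way. Lamb1 (NM_008482, chromosome 12, 31265294 to 31329639, plus strand) had 714 counts (B6), 4356 (NOD 1) and 2996 (NOD 2). Its level was 52.4 CPM in B6 against 132 and 88.0, with a NOD mean of 109.9 ± 30.9 (SD, n = 2), which is 2.10 times B6. Both NOD libraries were above B6, by 2.52 and 1.68 times. The other beta chain counted, Lamb2, had 15.7 CPM (B6), 2.30 (NOD 1) and 0.970 (NOD 2), and did not pass the test (log2 fold change -3.26, standard error 0.77, adjusted p = 0.0509 from edgeR). With DESeq2 size factors its adjusted p was 0.0471, with DESeq2 it was 0.0108, and over its other alternatives with a test it ran from 0.0542 to 0.0976. Lamb3 had 0 counts in every library.

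Lamc1 encodes the gamma-1 chain, without which no embryonic basement membrane forms in mice. Lamc1 (NM_010683, chromosome 1, 153218922 to 153332786, minus strand) had 825 counts (B6), 3067 (NOD 1) and 996 (NOD 2), or 60.5, 92.8 and 29.3 CPM. The B6 level lay between those of the NOD libraries, which differed by 3.17 times (2.95 to 3.41), so that no direction against B6 was seen. Its log2 fold change was 0.01, and -1.03 or 0.62 when NOD 1 or NOD 2 was left out. Its sign also turned with DESeq2 size factors (-0.03) and total counts only (-0.16), and in DESeq2 (-0.03) and limma-voom (-0.22). Lamc3 had 0 counts throughout.

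Summed per length, the balance of the laminin chains differed between the B6 library and both NOD libraries. The alpha chains summed to 41.2 FPKM in B6, of which Lama5 made up 97.0%, and to 7.89 in NOD 1 and 2.24 in NOD 2, of which it made up 59.2% and 62.1%. The beta chains summed to 11.9 FPKM in B6, 23.4 in NOD 1 and 15.5 in NOD 2. Lama5 was thus at 5.01 times the FPKM of Lamc1 in B6, but at 0.382 times in NOD 1 and 0.360 times in NOD 2. Both NOD libraries gave nearly the same value for this ratio. The ratio of Lamb1 to Lamc1 was less alike between them, at 1.88 in NOD 1 and 3.98 in NOD 2 against 1.14 in B6. Lama5 has a longer listed transcript (11307 bases) than Lamc1 (7592) and Lamb1 (5743). Fold changes moved with length over all genes, as given below, and the part of length in this balance was not tested.

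**Figure D2:**
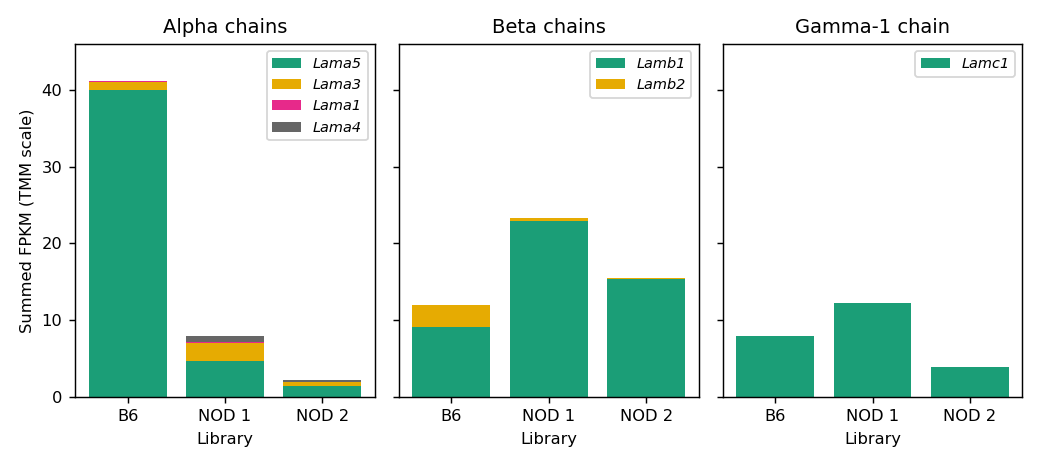
Summed FPKM (TMM scale) of the laminin alpha and beta chains, stacked by gene, and FPKM of Lamc1 in each library, with 1 bar per library and no error bars. The alpha bar goes from 41.2 in B6 to 7.89 in NOD 1 and 2.24 in NOD 2, whereas the beta bar is higher in both NOD libraries.

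The difference between the NOD libraries was not used to choose the genes. Of the 7 laminin chains described with at least 10 counts over both NOD libraries, 7 were higher in NOD 1 than in NOD 2, and 6 of them by at least 2 times. Lamb1, at 1.497 times (1.43 to 1.57), was the exception. The ratios of the other chains ran from 2.37 for Lamb2 to 4.40 for Lama1. Over the 14108 genes tested with as many counts, 49.9% were higher in NOD 1 and 12.6% by at least 2 times. The 6 members that are not laminins had ratios from 0.639 for Col4a2 to 1.65 for Cthrc1. Such an excess was not particular to laminins, since among the other pathway genes Plod2 had 22.3 CPM in NOD 1 and 3.53 in NOD 2, and Timp3 had 30.7 and 5.17 (both named after their values were seen). With 1 pair of libraries this difference could not be tested.

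**Figure D3:**
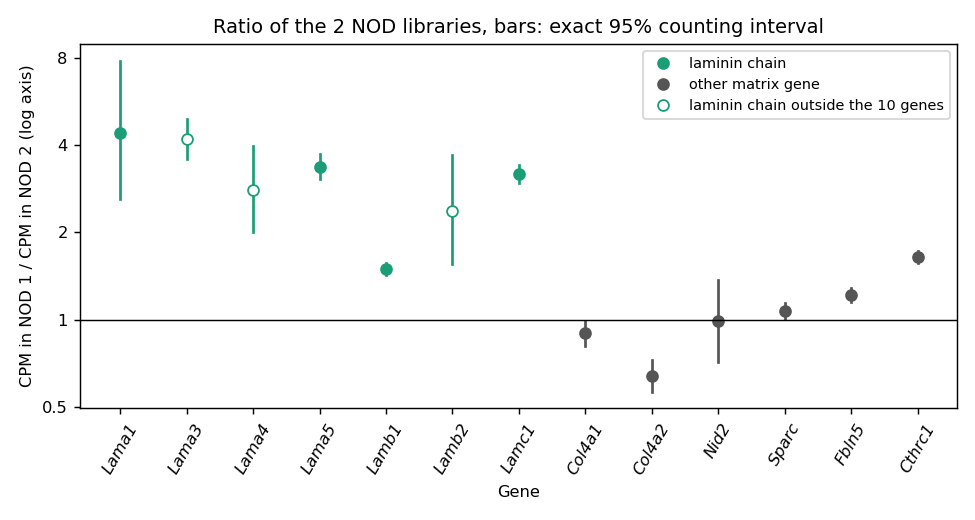
Ratio of CPM in NOD 1 to NOD 2 (log axis) for laminin chains (green, open where the chain is outside the 10 genes) and the other matrix genes (grey), with exact 95% counting intervals. Laminin chains lie between 1.497 and 4.40, and collagen IV, Nid2, Sparc, Fbln5 and Cthrc1 between 0.639 and 1.65.

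Col4a1 and Col4a2 encode the alpha-1 and alpha-2 chains, which join at a ratio of 2 to 1 in the collagen IV of most basement membranes. Col4a1 (NM_009931, chromosome 8, 11198423 to 11312826, minus strand) had 623 counts (B6), 743 (NOD 1) and 852 (NOD 2), or 45.7 CPM against 22.5 and 25.0. Col4a2 (NM_009932, chromosome 8, 11312829 to 11449287, plus strand) had 313, 416 and 670 counts, or 23.0 CPM against 12.6 and 19.7. Both genes were below B6 in both NOD libraries. For Col4a1, B6 was 2.03 times NOD 1 and 1.83 times NOD 2, while for Col4a2 it was 1.83 times NOD 1 and 1.17 times NOD 2.

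The collagen IV genes lie head to head, with 2 bases between the listed transcripts, and in RefSeq (GRCm38.p6) their first exons overlap by 22 bases on opposite strands. The ratio of Col4a1 to Col4a2 per length was 1.93 (B6), 1.74 (NOD 1) and 1.24 (NOD 2). The tissue-restricted chains Col4a3 to Col4a6 had at most 1 count in any library.

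Nid2 showed the largest shift among the members counted in every library. Nid2 (NM_008695, chromosome 14, 19751257 to 19811787, plus strand) encodes nidogen-2, a linker of laminin and collagen IV. It had 1310 counts (B6), 77 (NOD 1) and 80 (NOD 2), or 96.1 CPM against 2.33 and 2.35. B6 was thus 41.1 times the NOD mean of 2.34 ± 0.0151 CPM (SD, n = 2), and the NOD libraries agreed within counting error (ratio 0.991, 0.715 to 1.37). The 3′ end of Nid2 overlaps the end of 2700060E02Rik on the other strand over 386 bases. Reads were counted without regard to strand, so those on this stretch could count for both genes, which was not tested. The partner had 314 CPM (B6), 178 (NOD 1) and 146 (NOD 2).

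Its paralog Nid1, encoding nidogen-1, was also below B6 in both NOD libraries. Nid1 had 84.1 CPM in B6 and 70.9 and 49.05 in NOD, and did not pass the test (log2 fold change -0.49, standard error 0.37, adjusted p = 0.366 from edgeR). Per length, Nid1 was at 0.706 times Nid2 in B6, 24.6 times in NOD 1 and 16.8 times in NOD 2.

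Sparc differed by less than 1.5 times between any of the libraries. Sparc (NM_009242, chromosome 11, 55394159 to 55420080, minus strand) had 705 counts (B6), 2187 (NOD 1) and 2104 (NOD 2), or 51.7, 66.2 and 61.8 CPM. Both NOD libraries were above B6, by 1.28 and 1.20 times, and the NOD mean was 64.0 ± 3.07 CPM (SD, n = 2). In a scaling by total counts only, its log2 fold change of 0.31 was 0.12.

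Fbln5 and Cthrc1 had 0 counts in B6 and substantial counts in both NOD libraries. This is what put them in the set. Fbln5 (NM_011812, chromosome 12, 101746565 to 101819119, minus strand) had 2877 counts in NOD 1 and 2436 in NOD 2. Its NOD level was 79.3 ± 10.9 CPM (SD, n = 2), which is at least 360-fold higher than the limit of 3 counts in the B6 library. Cthrc1 (NM_026778, chromosome 15, 39076932 to 39087119, plus strand) had 4452 counts in NOD 1 and 2778 in NOD 2. Its NOD level was 108 ± 37.5 CPM, at least 491-fold higher than the limit in B6, and per length it was the highest gene of the set in both NOD libraries, at 116 and 70.5 FPKM.

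The genes next to Fbln5 and Cthrc1 were looked at after the values were seen. Within 200000 bases of Fbln5, 4 genes were tested (Tc2n, Trip11, Atxn3 and Cpsf2) and none was called (edgeR adjusted p = 0.0872 for Trip11, 0.106 for Tc2n, 0.206 for Atxn3 and 0.245 for Cpsf2). All 4 were above B6 in both NOD libraries, as were 45.3% of all genes, and Tc2n had 1 count in B6 against 62 and 76. Around Cthrc1, 4 genes were tested and Dcaf13 rose, from 82.3 CPM to 289 and 435 (log2 fold change 2.14, standard error 0.36, adjusted p = 0.0297 from edgeR). The nearest gene, Slc25a32, had 3.45 CPM (B6), 11.98 (NOD 1) and 35.0 (NOD 2) and did not pass (adjusted p = 0.0871). Near Lama5, 3 of 12 tested genes fell (Lsm14b, Ss18l1 and Rps21) and none rose, and near Nid2, 1 of 2 rose (Gng2). Of all genes tested, 7.39% fell and 10.3% rose, and nothing particular to these loci is read from so few neighbours.

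The promoters of Fbln5 and Lama5 are shown because these genes stood at opposite ends, the former without counts in B6 and the latter the most abundant there. Each is the 250 bases before the RefSeq start on GRCm38.p6, read 5′ to 3′ on the gene's strand and taken from the reference, which is B6, so that strain differences in these windows are not shown. Capitals mark a GC box (GGGCGG) or a CCAAT box (CCAAT) on either strand. RefSeq also lists a start of Fbln5 further downstream, and the window shown precedes the start of the counted transcript. The window of Fbln5 is chr12:101819120-101819369 and that of Lama5 chr2:180225860-180226109, both on the minus strand.
Fbln5: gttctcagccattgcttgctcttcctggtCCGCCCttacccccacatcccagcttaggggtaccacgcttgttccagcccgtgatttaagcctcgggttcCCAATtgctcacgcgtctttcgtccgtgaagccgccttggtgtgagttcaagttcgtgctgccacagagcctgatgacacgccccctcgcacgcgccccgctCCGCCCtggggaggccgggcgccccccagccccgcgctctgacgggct
Lama5: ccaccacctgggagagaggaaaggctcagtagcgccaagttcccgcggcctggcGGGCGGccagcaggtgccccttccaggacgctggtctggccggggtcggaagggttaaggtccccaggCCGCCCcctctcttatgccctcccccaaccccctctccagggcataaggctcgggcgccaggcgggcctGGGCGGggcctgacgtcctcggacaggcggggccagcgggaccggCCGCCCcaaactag

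The Fbln5 window shown held 2 GC boxes and 1 CCAAT box, and that of Lama5 held 4 GC boxes. Among 32851 such windows of RefSeq genes, 32.7% held a GC box and 33.9% a CCAAT box. Both windows were rich in G and C, at 65.2% for Fbln5 and 72.4% for Lama5. The letters TATAAA and AGATAA (the latter a GATA motif), which 12.4% and 9.99% of windows held on either strand, were in neither. Promoters of Lamb1, Col4a1, Col4a2 and Sparc were also matched, and Lama1, Lamc1, Nid2 and Cthrc1 were not.

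Per length, the order of the 10 genes differed between the B6 library and the NOD libraries. For Fbln5 and Cthrc1 this was fixed beforehand, since they were included for having no counts in B6. In B6 it ran from Lama5 (40.0 FPKM) over Nid2 (19.8) and Sparc (19.7) to Lamb1 (9.12), Lamc1 (7.98), Col4a1 (6.97), Col4a2 (3.603) and Lama1 (0.179), without a replicate to give a spread. In NOD it ran from Cthrc1 (93.4 FPKM) over Sparc (24.3), Lamb1 (19.1) and Fbln5 (13.5) to Lamc1 (8.04), Col4a1 (3.62), Lama5 (3.03), Col4a2 (2.53), Nid2 (0.481) and Lama1 (0.151). The ranges of the NOD libraries overlapped between Fbln5 and Lamc1, between Col4a1 and Lama5 and between Lama5 and Col4a2, and the other neighbours were apart in these libraries.

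The other genes of the pathway were listed by role, also with earlier results of these data known. The edgeR test of NOD against B6 is given for each gene, and shares of called genes in these lists are a description. Of 120 such genes in the table, 84 were tested, of which 4 rose in NOD and 5 fell, or 10.7%, against 17.7% of all 14456 genes. Their median log2 fold change was 0.25. Among nidogen, proteoglycans and linkers, 1 of 11 tested genes fell and none rose. This was Agrn, which encodes the proteoglycan agrin, with 61.1 CPM in B6 and 14.4 and 9.79 in NOD (log2 fold change -2.34, standard error 0.42, adjusted p = 0.0333 from edgeR). Hspg2, encoding perlecan, had 6.46 CPM in B6 and 0.696 and 0.852 in NOD and did not pass (adjusted p = 0.0769).

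In the matrix receptors, 3 of 20 tested genes fell and none rose, where 7.39% of all genes tested fell and 10.3% rose, and nothing particular to receptors is read from this count. Itga6, the integrin alpha-6 chain that binds laminins, went from 191 CPM in B6 to 56.9 and 62.4 (log2 fold change -1.68, standard error 0.27, adjusted p = 0.0283 from edgeR). The collagen receptor Ddr1 went from 30.9 CPM to 4.54 and 4.11 (adjusted p = 0.0293), and Sdc4, the heparan sulfate proteoglycan syndecan-4, from 1149 to 182 and 211 (adjusted p = 0.0196). Itgb1, the partner chain of most laminin-binding integrins, had 117 CPM in B6 and 256 and 169 in NOD (adjusted p = 0.141), and the laminin receptor Dag1 had 96.1 against 131 and 76.6 (adjusted p = 0.849). Neither passed the test.

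Among genes for folding, modification and export of matrix proteins, 1 of 21 tested genes rose and none fell, or 4.76% called beside 17.7% of all genes, from which nothing is read at these numbers. Ctage5, which acts in the export of large cargo such as collagens, rose from 33.2 CPM to 223 and 213 (log2 fold change 2.71, standard error 0.29, adjusted p = 0.0203 from edgeR). P4hb, a subunit of the collagen prolyl hydroxylase, had 338 CPM in B6 and 660 and 440 in NOD (adjusted p = 0.172). The collagen chaperone gene Serpinh1 had 21.8 CPM in B6 and 0.151 and 1.47 in NOD and did not pass either (adjusted p = 0.0612).

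Among elastic fibre and interstitial matrix genes, where Fbln5 belongs by function, 2 of 16 tested genes rose and 1 fell, or 18.8% called, near the 17.7% of all genes. Efemp2, encoding fibulin-4, had 1 count (B6), 230 (NOD 1) and 173 (NOD 2). NOD was 81.9 times B6, the interval for counting error running from 14.6 to 3241 (adjusted p = 0.0373 from edgeR). Mfap4, a microfibril-associated protein gene, rose from 14.8 CPM to 67.1 and 57.2 (adjusted p = 0.0365 from edgeR). Ltbp3, which binds latent TGF-beta, fell from 29.9 CPM to 6.17 and 5.41 (adjusted p = 0.0375). Fn1, encoding fibronectin, had 24.5 CPM in B6 and 32.4 and 39.9 in NOD (adjusted p = 0.336). Of the 10 proteases and inhibitors tested, only Ctsl, the lysosomal protease cathepsin L, rose, from 191 CPM to 566 and 496 (adjusted p = 0.0283). None of the 3 SPARC family genes or the 3 other laminin chains described passed. All 9 of these calls were lost in edgeR when genes with low counts were kept and in limma-voom.

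**Figure D4:**
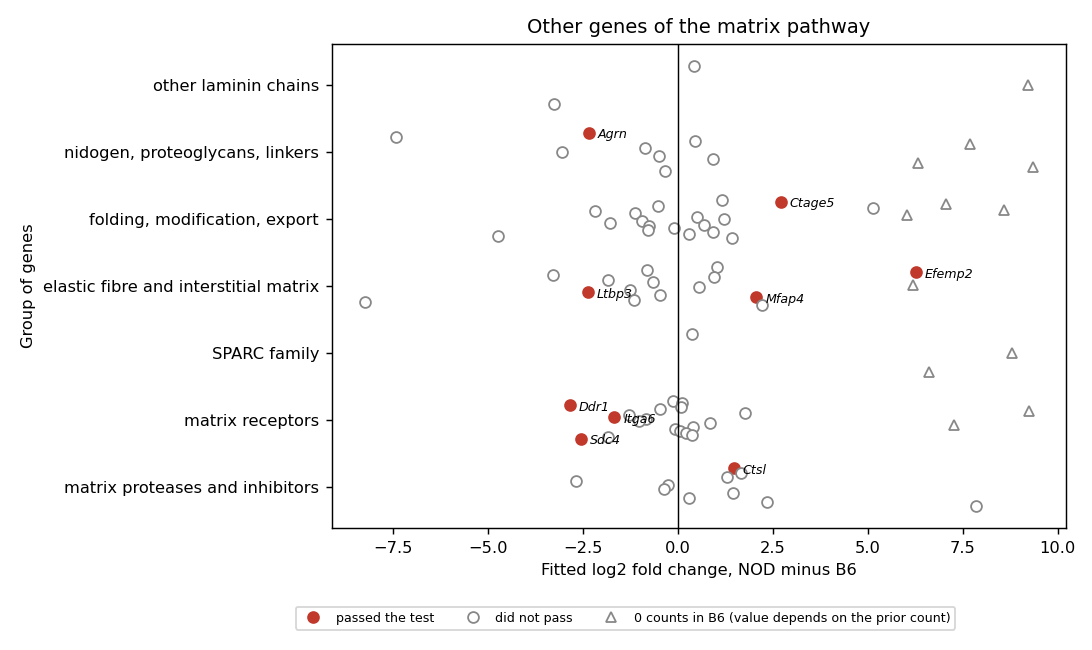
Fitted log2 fold change (NOD minus B6) of the pathway genes outside the set that were tested, 1 point per gene by role, filled red where the gene passed the edgeR test and drawn as a triangle where B6 had 0 counts. The 9 genes that passed are named, of which 4 rose and 5 fell.

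Transcript length moved with these differences over all genes. The members run from 1158 bases (Cthrc1) to 11307 (Lama5). Among genes of at least 1 CPM on average, the median log2 fold change was 0.24 for transcripts of up to 1000 bases (1102 genes), 0.62 for those over 1000 and up to 2000 bases (3011 genes) and -0.74 for those over 9000 bases (294 genes), of which 17.7% were called lower and 2.04% higher. Between the NOD libraries, the median log2 ratio of NOD 1 to NOD 2 was -0.04, -0.12 and 0.44 in the same classes, and 20.4% of transcripts over 9000 bases were at least 2 times higher in NOD 1. The log2 fold change of Lama5, -3.72, lay below the median of its length class, as did that of Nid2 (4861 bases), -5.36, beside -0.30 for transcripts over 4000 and up to 6000 bases. Lamb1 (5743 bases) and Fbln5 (5880 bases) in that class were higher in NOD. The part of length in the results for the matrix genes was not tested.

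**Figure D5:**
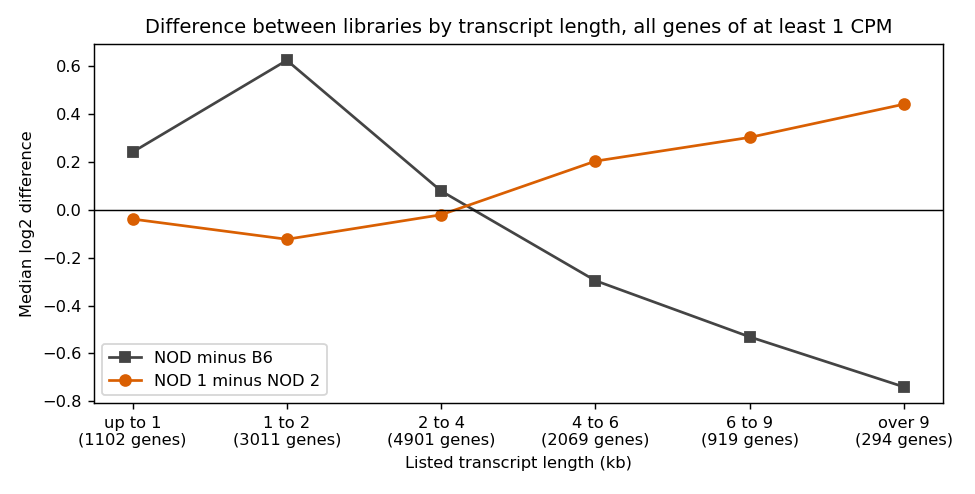
Median log2 difference of NOD minus B6 (squares) and NOD 1 minus NOD 2 (circles) in 6 classes of listed transcript length, for tested genes with a mean of at least 1 CPM. The former is 0.24 in the shortest class and goes from 0.62 to -0.74 between transcripts of 1 to 2 kb and those over 9 kb, and the latter from -0.12 to 0.44.

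Markers of the cells known to secrete this matrix went both ways. Of 11 tested genes of the primitive endoderm list, Pdgfra rose, from 5.50 CPM to 23.6 and 24.6 (adjusted p = 0.0488 from edgeR), and Gata6 fell, from 385 to 91.5 and 130 (adjusted p = 0.0285). Dab2 had 371 CPM in B6 and 651 and 824 in NOD (adjusted p = 0.0571), Gata4 had 7, 100 and 120 counts, and Sox17 had 16 counts in NOD 2 and 0 elsewhere. Of the 11, 3 were above B6 in both NOD libraries (Pdgfra, Dab2 and Gata4) and 4 below it (Gata6, Lrp2, Cubn and Hnf4a, the last 3 named after their values were seen). Lrp2, an endocytic receptor with a long transcript, had 1074 CPM in B6 and 618 and 304 in NOD (adjusted p = 0.108), and Cubn had 52.7 against 17.2 and 7.32 (adjusted p = 0.0694). The list summed to 1902 CPM (B6), 1412 (NOD 1) and 1308 (NOD 2). Lrp2, the highest gene of the list in B6, weighs heavily in these sums, so no direction of the list is read from them. The 8 parietal endoderm markers summed to 10.6, 2.15 and 11.2 CPM. Those of trophectoderm summed to 3089, 1793 and 1660 CPM with none of 9 tested genes called. Of these 9, 7 were below B6 in both NOD libraries, beside 39.4% of all genes. Krt18, named after its values were seen, had 1464 CPM in B6 and 812 and 852 in NOD, with an adjusted p of 0.0453 from edgeR but a change under 2-fold. The study describes immunosurgery, which removes the trophectoderm, whereas the labels name blastocysts. Epiblast and ICM markers summed to 1343, 2872 and 3857, with 3 of 10 up-regulated and 1 down-regulated, beside 10.3% and 7.39% of all genes. These sums include Dppa5a, named after its values were seen, with 849 CPM in B6 and 2251 and 2966 in NOD. Of the 10 genes, 6 were above B6 in both NOD libraries and 4 below it. Nanog had 118 CPM in B6 and 217 and 337 in NOD (adjusted p = 0.0752), and Sox2, also named after its values were seen, fell from 49.8 to 5.75 and 9.61 (adjusted p = 0.0327 from edgeR). The 8 fibroblast and stroma markers summed to 0.807 CPM (B6), 3.24 (NOD 1) and 5.35 (NOD 2). Of these, Col3a1 and 4 others had 0 counts in every library, Col1a1 had 0, 16 and 20 counts, and 2 of the 3 tested were above B6 in both NOD libraries. The 6 leukocyte markers summed to 0.220, 0.333 and 1.03 CPM, with 0 counts of Ptprc in every library, and the 6 cumulus cell markers to 0.220, 0.484 and 0.147. Whether a different share of these cells had a part in the matrix results was not tested.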

How the data were processed

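The authors mapped single-end reads to mm10 (STAR) and used HOMER to count them over exons of RefSeq genes, with 1 listed transcript for each gene and without regard to strand. The values deposited by the authors are raw counts, and transcript lengths come from the same table. How reads with several alignments were treated is not given in the sources used here. After filterByExpr (minimum count 10), edgeR's quasi-likelihood test (R 4.3.3, edgeR 4.0.16, TMM, trended dispersion) set the NOD libraries against B6, with Benjamini-Hochberg adjustment over 14456 genes. Calls needed an adjusted p below 0.05 and a change of 2-fold or more. Only the NOD pair gives a spread (1 residual degree of freedom), B6 is assumed to vary likewise, and nothing says that the NOD libraries came from separate animals, so that the p-values may measure technical spread. The code was tested on simulated data with 200 changed genes. It called 18 of 100 genes changed 4-fold and 66 of 100 changed 32-fold, with 0 false calls. A gene that did not pass may therefore still have changed.

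The members and gene lists were chosen with earlier results of these data known. Named were the members, all laminin and collagen IV chains, the called genes of each pathway list (at most 4 in each direction, mean of at least 1 CPM), and partners, receptors and defining markers picked by function. Of the laminin chains, 1 is not reported here. Length classes and neighbouring genes were added after seeing the data. Alternatives used DESeq2 1.42.0, limma-voom (limma 3.58.1), other scaling factors, no filter and each NOD library left out. Counting intervals are exact (Clopper-Pearson, 95%).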

Additional observations from a re-analysis of the deposited data

How the results depend on the processing

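The calls depended on the test and on the filter. Of all genes, 1483 were called higher and 1069 lower in NOD. DESeq2 called 2346 and 1864. Upper-quartile factors gave 1016 and 701. limma-voom called 0 in either direction (smallest adjusted p = 0.0501, with 3924 genes at an unadjusted p under 0.05), and so did edgeR with genes of low count kept (0 calls, 5568 at an unadjusted p under 0.05). In both of these settings the calls among the 10 matrix genes (2 higher, 2 lower), the other pathway genes (4 higher, 5 lower) and the marker genes also went to 0. This took the calls of Agrn, Itga6, Ddr1, Sdc4, Ltbp3, Ctage5, Efemp2, Mfap4 and Ctsl. DESeq2 called 10 of the other pathway genes higher and 10 lower, Lama4, Lamb2 and Serpinh1 among them, and 3 of the 10 matrix genes higher (Lamb1 in addition) and 2 lower. Among markers, 4 higher and 2 lower became 2 and 5 with total counts only, and 2 were called higher with upper-quartile factors. With total counts only, 1037 genes were called higher and 1132 lower. Without NOD 1 or NOD 2, which leaves a value with no test, the median of the 10 genes ran from -0.53 to 0.41, and that of the other pathway genes, 0.25 with both, from -0.00 to 0.17. Without length correction, 4 of the 10 genes kept their rank in NOD. No member that edgeR called changed sign under an alternative. No paired analysis was possible because the groups share fewer than 2 replicate numbers. The B6 library had the fewest counts and no replicate, and the spread comes from the NOD pair.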
